A study of Mus musculus with 12 samples.

Results

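Primary mouse embryonic fibroblasts (MEFs) kept in medium from ferroptotic cells were compared with the same cells kept in medium from control cells. The comparison uses 6 of the 12 RNA-seq libraries of the series, the 3 MEF libraries of each medium, which were taken from the sample titles. All MEFs, in both media, were Bach1-/- primary cells (pMEFs), so every value below describes cells without functional Bach1 according to the labels. The media were supernatants that immortalised MEFs had conditioned for 48 h in DMEM with 10% fetal bovine serum. The control medium came from control cells, and the ferroptotic medium came from cells of the same kind in which Bach1 had been re-expressed. The pMEFs stayed in the medium for 4 days, with daily renewal, and 0.1 mM 2-ME and 0.4 mg/mL vitamin E were present in both arms. The other 6 libraries are of Hepa1, a mouse hepatoma line treated in the same way, and serve here only as a reference for stray hepatoma reads. Neither the number of embryos behind the pMEFs nor separate cultures for the replicates are given, so each p-value reflects the scatter of these libraries alone, which could be technical.

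Ferroptosis is cell death through iron-dependent peroxidation of membrane lipids, and vitamin E is a lipid antioxidant that blocks it. BACH1 is a heme-regulated repressor of genes for iron handling and antioxidant defence. Fibroblasts receive signals from dying neighbours through secreted factors and their receptors. They answer through immediate-early transcription factors (FOS, JUN, EGR and NR4A proteins), which are switched on within minutes of a stimulus, and through slower programmes such as the contractile myofibroblast state. The account below follows that order: transcription factors, secreted factors, receptors, lineage programmes and long non-coding RNAs (lncRNAs).

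Each MEF library held 21 to 23.4 M reads assigned to genes, and 14441 genes had enough reads to be tested. A gene was called when its adjusted p in edgeR's quasi-likelihood test was under 0.05. Values are normalised CPM, read counts relative to the library's scaled total, and a log2 change is ferroptotic minus control medium. Calls were made for 7971 genes (55.2%), of which 4025 were higher (27.9%) and 3946 lower (27.3%). When libraries were scaled to their totals only, 5234 were higher and 2971 lower. A change of at least 2-fold with a call was rarer, in 976 genes (6.76%), 632 higher (4.38%) and 344 lower (2.38%). The 3 values of each medium did not overlap in 60.2% of genes, so neither a call nor separated groups set a gene apart here, and sizes of change are given throughout. Slightly more genes had a read in ferroptotic medium (21014 to 21374) than in control medium (20213 to 20501), and slightly more reads fell on no gene (2.49 to 2.52% against 2 to 2.16%).

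Fibroblast markers were abundant in both media. All 18 fibroblast genes listed were tested, and their summed level was 86600 to 90100 plain CPM (scaled to the library total only) in control medium and 80600 to 82500 in ferroptotic medium. Defining genes of other cells had 0 reads in all 6 libraries, among them Ptprc (leukocytes), Cdh5 (endothelium), Myod1 (muscle), Sox10 (neural crest) and Alb (liver). Some other markers of those cells were present and moved. Of 16 endothelial genes, 6 had 0 reads and 3 were tested, with Erg (51.4 to 57.1 against 58.8 to 62.4 CPM, log2 change 0.14) and Tek (0.77) higher and Egfl7 (-0.79) lower. Their summed level was 63.5 to 69.9 plain CPM in control medium and 72.5 to 76.8 in ferroptotic medium. Of 16 macrophage genes, 7 had 0 reads and 3 were tested, with Lyz2 (1.30) higher, Cd14 (-0.50) lower and Cd68 not passing the test. Their sum was 7.91 to 9.98 and 10.7 to 12.1 plain CPM. Of 25 skeletal muscle genes, 9 had 0 reads and 4 were tested, with Mef2c (0.66) and Myl4 (0.65) higher and Tnnc1 (-1.43) lower, and their sum was 24.4 to 29.0 and 37.9 to 41.3 plain CPM. Erg lost its call without control replicate 3 (adjusted p = 0.0773), and Myl4 lost it in DESeq2 (0.153) and when control replicate 1 (0.263), control replicate 3 (0.143), ferroptotic replicate 2 (0.0774) or ferroptotic replicate 3 (0.113) was left out. The part of these markers in the results was not tested. Bach1 reads were present at 74.4 to 83.5 CPM in control and 70.2 to 76.0 CPM in ferroptotic medium (log2 change -0.11, SE 0.0386, adjusted p = 0.0102). The counts span the whole gene, so they do not check the deletion, and the call was lost without ferroptotic replicate 3 (adjusted p = 0.109), without control replicate 1 (0.12), without scaling (0.344) and in DESeq2 (0.0599). Fgf21, the secreted factor that the series title names, had 53 reads in the control libraries together and 51 in the ferroptotic ones, and did not pass the test (adjusted p = 0.672). Klb, the co-receptor that FGF21 needs, had 0 reads in every MEF library, and its receptor Fgfr1 was measured at 429 to 434 CPM in control and 443 to 450 CPM in ferroptotic medium (log2 change 0.05, adjusted p = 0.0858). In bulk RNA of this kind, fewer cells of a type and less RNA per cell cannot be told apart.

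Ferroptotic replicate 3 carried more reads of hepatoma genes than the other MEF libraries. For 19 genes with at least 100 plain CPM on average in Hepa1 and under 0.2 CPM in MEFs in control medium, it held 159 reads, against 31 and 21 in ferroptotic replicates 1 and 2 and 18 to 21 in the control libraries. That is 0.12% of the Hepa1 level, against 0.0253 and 0.017%, and 0.0148 to 0.0175% in the control libraries that had served to choose the genes. Krt18, an epithelial keratin gene, gave 47 of these reads, after 2 and 2 in replicates 1 and 2. Its partner Krt8 gave 10, after 0 and 4, and the desmosome gene Dsp gave 10, after 2 and 3. Alb had 0 reads in replicate 3, where the same share would give 0.944 reads at the Alb level of Hepa1 in control medium and 8.73 reads at that of Hepa1 in ferroptotic medium. None of the 19 genes passed the filter for testing, so they are in no count below.

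The stray reads were small beside the values of most called genes. A share of 0.12% of the mean Hepa1 level came to at least 10% of the value in replicate 3 for 13 of the 7971 called genes, 12 lower and 1 higher, and all 13 kept their call without that library. Trf, the transferrin gene, was among them, and its level in ferroptotic medium was 11.4, 9.19 and 7.86 CPM, lowest in replicate 3. Of tested genes without a call, 13 reached the same 10%, and 2 of them were called once replicate 3 was left out. Krt7, an epithelial keratin gene, had 2, 7 and 17 reads in the ferroptotic libraries, and its log2 change of -0.76 (adjusted p = 0.0953) became -1.65 (adjusted p = 0.00432). Aldoc, an aldolase gene, had 16, 28 and 8 reads, and its 0.77 (adjusted p = 0.0767) became 1.15 (adjusted p = 0.00701), and it also passed without control replicate 3 (adjusted p = 0.0207). Leaving replicate 3 out removed 774 calls and added 204, with 0 changes of direction. Of the 976 genes called at 2-fold or more, 967 kept their call without it.

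**Figure D1:**
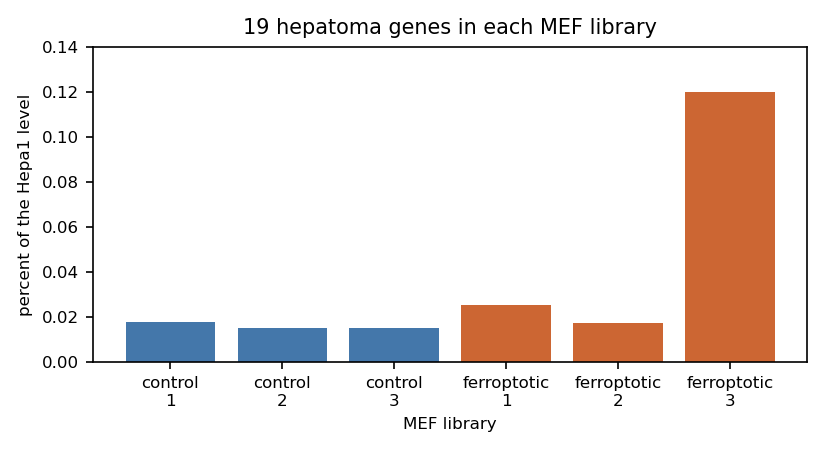
Summed plain CPM of 19 hepatoma genes in each MEF library, as a percentage of their summed mean level in the 6 Hepa1 libraries, with 1 bar per library. Ferroptotic replicate 3 reaches 0.12%, and the other 5 libraries lie between 0.0148 and 0.0253%.

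Transcription factor genes moved in both directions, and families of immediate-early factors parted. Of 773 transcription factor genes listed, 467 were tested, and 174 were higher and 139 lower. Calls reached 67.0%, against 55.2% of all genes, and the median log2 change was 0.03, against 0.00 over all genes. At least 2-fold, 31 were higher and 15 lower (9.85%, against 6.76% of all genes). Of the tested factor genes, all protein-coding, 37.3% were higher and 29.8% lower, against 30.3 and 29.4% of all tested protein-coding genes. All 4 Id genes, which encode inhibitors of basic helix-loop-helix factors and are classic targets of BMP signalling, were higher. Id1 was at 22.2, 22.0 and 19.7 CPM in control medium and at 67.7, 67.0 and 63.9 CPM in ferroptotic medium (log2 change 1.64, SE 0.0497, adjusted p = 1.37e-45). Every ferroptotic library was above every control library for each of the 4, and Id2 (1.21), Id3 (0.44) and Id4 (1.39) followed Id1 in direction. The media did not overlap, in either direction, in 60.2% of all tested genes. Family members beyond the naming rule were picked with their values in view.

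The Egr genes, zinc finger immediate-early genes, were higher in 3 of 3 cases. Egr1 rose from 134, 140 and 139 CPM to 230, 245 and 226 CPM (log2 change 0.76, SE 0.0302, adjusted p = 3.09e-37). Egr3 rose from 3.22 to 4.01 CPM in control medium to 9.86 to 11.5 CPM, by 1.56 on the log2 scale, and Egr2 by 1.5. The other immediate-early families went the opposite way. Of the genes that form the dimeric factor AP-1, 6 of 6 tested were lower: Fosb (-1.61), Junb (-1.39), Jun (-0.60), Fos (-0.57), Fosl2 (-0.56) and Jund (-0.17). Junb, the one with the smallest adjusted p of these, was at 75.8, 79.1 and 83.5 CPM in control medium and at 28.1, 32.2 and 30.3 CPM in ferroptotic medium (SE 0.0458, adjusted p = 1.05e-41). All 3 Nr4a genes, orphan nuclear receptors induced by the same stimuli, were lower as well, with Nr4a1 at 18.3, 23.1 and 23.8 against 7.97, 8.52 and 8.61 CPM (log2 change -1.37, SE 0.0824, adjusted p = 2.83e-22). Egr and AP-1 genes are usually induced together, and here their levels after 4 days lay on opposite sides.

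Among single factors, Epas1 (ENSMUSG00000024140, GRCm38 chromosome 17, 86753700 to 86833410), which encodes a hypoxia-inducible factor, rose from 34.9, 38.3 and 33.3 CPM to 107, 102 and 104 CPM, by 1.55 on the log2 scale (SE 0.0415, adjusted p = 2.21e-49). Zim1, an imprinted zinc finger gene, rose by 1.45 from 108 to 134 CPM to 321 to 342 CPM. Hey1 and Hey2, targets of Notch signalling, had few reads in control medium (23 and 17 in all) and more in ferroptotic medium (126 and 151). Their log2 changes were 2.32 and 3.01. Of 4 Notch receptor genes tested, Notch1 (0.91) and Notch3 (0.52) were higher and Notch2 (-0.23) was lower.

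Runx1 (ENSMUSG00000022952, GRCm38 chromosome 16, 92601466 to 92826149), a factor of blood and mesenchymal cells, showed the largest fall of the factors with a mean of at least 5 CPM. It was at 82.5, 92.5 and 82.6 CPM in control medium and at 23.6, 22.4 and 22.0 CPM in ferroptotic medium (log2 change -1.92, SE 0.0479, adjusted p = 2.22e-49). Runx3 fell by 1.09 on the log2 scale, whereas Runx2, the bone-forming member of the family, was higher by 0.45, at 76.8 to 79.7 CPM against 102 to 111 CPM. Cebpd, an early factor of inflammation and fat cell formation, fell from 108, 113 and 117 CPM to 37.0, 36.0 and 35.5 CPM (log2 change -1.64, SE 0.0398, adjusted p = 1.55e-52). Myc (-1.20) and the vitamin D receptor gene Vdr (-1.09) fell too. Cebpd, Junb and Runx1 each overlap a gene on the other strand, as do 55 of the 142 genes named by rule, and the reads of the strands cannot be told apart.

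**Figure D2:**
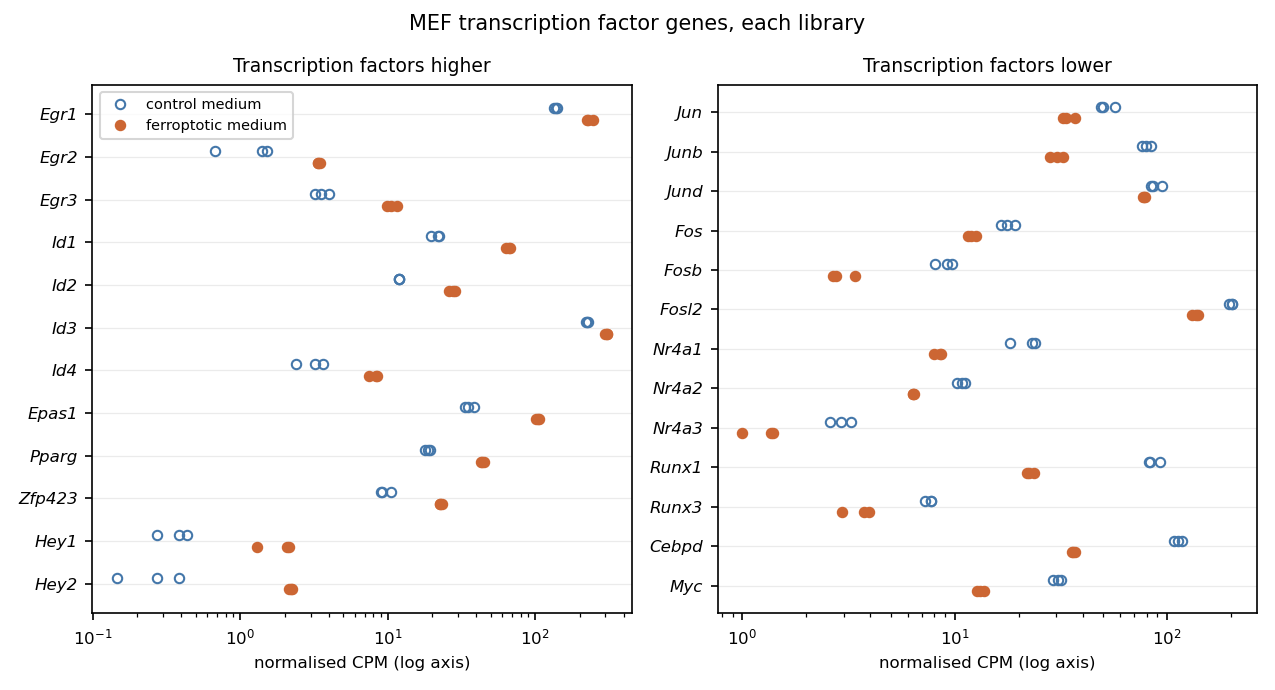
Normalised CPM (log axis) of 12 transcription factor genes that were higher (left) and 13 that were lower (right) in ferroptotic medium, with 1 open circle per control library and 1 filled circle per ferroptotic library. The 3 libraries of each medium lie close together and apart from the other medium, as for Epas1 (33.3 to 38.3 against 102 to 107 CPM) and Runx1 (82.5 to 92.5 against 22.0 to 23.6 CPM).

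Some other families had smaller medians than the Id, Egr, AP-1 and Nr4a genes, at 0.17 for Irf and Stat, -0.22 for Smad and -0.27 for Tead genes. Their counts stand beside calls in 55.2% of all genes, 27.9% higher and 27.3% lower. Of 20 Hox genes tested, which hold positional identity, 4 were higher and 7 lower with a median of 0.01. Of 12 Irf and Stat genes, the factors of interferon and cytokine signalling, 9 were higher, and Stat3 was lower at -0.14. Of 8 Smad genes, which carry TGF-beta and BMP signals, 6 were lower and 2 higher, all by 0.42 or less in size. Of 4 Tead genes, the DNA-binding partners of YAP and TAZ, 3 were lower, by -0.24 to -0.43.

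Secreted signalling factors moved more often and further than genes at large. Of 391 listed genes 190 were tested, and 65 were higher and 84 lower. Calls reached 78.4%, against 55.2% of all genes. Changes of at least 2-fold reached 28.9%, against 6.76% of all genes, with 29 up and 26 down. The class holds protein-coding genes only, of which 34.2% were higher and 44.2% lower. Over all tested protein-coding genes these shares were 30.3 and 29.4%. The median log2 change of the secreted factors was -0.09. Scg2 (ENSMUSG00000050711, GRCm38 chromosome 1, 79434669 to 79440120) showed the largest rise. It encodes a granin (secretogranin) of neuroendocrine secretory granules that is cut into the peptide secretoneurin, and it was at 1.01, 1.00 and 1.22 CPM in control medium and at 73.2, 66.7 and 70.1 CPM in ferroptotic medium. The log2 change was 6.02 (SE 0.0906, adjusted p = 1.73e-67), and no library of either medium came near the other. Of 22 neuron markers listed, 6 were tested, with Cntn1 (1.43), Map2 (0.61), Tubb3 (0.40) and Cplx2 (0.21) higher, Uchl1 (-0.39) lower and Ncam1 not passing the test. Tubb3 passed narrowly (adjusted p = 0.0484) and lost its call with any single library left out (0.0502 to 0.167 over these and the other fits in which it was lost). Their summed level was 80.4 to 87.8 plain CPM in control and 106 to 108 in ferroptotic medium, and the granin genes Chga, Chgb and Scg3 had too few reads to be tested.

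The promoter of Scg2 is shown because this gene changed most among secreted factors. Its 250 bases before the annotated start (RefSeq, GRCm38.p6, chr1:79440027-79440276, minus strand) are printed 5′ to 3′, with the capitals marking a cyclic AMP response element (CRE). The letters searched were TGACGTCA, a palindrome, so both strands give the same match, which starts 68 bases before the transcription start.
Scg2: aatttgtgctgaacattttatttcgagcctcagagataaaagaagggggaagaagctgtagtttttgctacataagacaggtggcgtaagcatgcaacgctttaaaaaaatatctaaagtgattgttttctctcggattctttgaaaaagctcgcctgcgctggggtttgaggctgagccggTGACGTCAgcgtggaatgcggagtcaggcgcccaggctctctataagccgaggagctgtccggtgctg
The window searched ran from 250 bases before to 50 bases after each start. A CRE was found in 3.57% of the promoters of the 10017 tested genes that could be matched by symbol, in 3.17% of those called higher and in 3.61% of those called lower. The match describes the sequence and says nothing of binding.

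The other rises included binding proteins and antagonists of growth factors. Igfbp5, which binds insulin-like growth factors in the matrix, rose from 89.1, 91.5 and 77.4 CPM to 825, 848 and 767 CPM (log2 change 3.24, SE 0.0678, adjusted p = 5.88e-09). Igfbp3 rose by 1.99, while Igfbp7 fell by 0.84 on the log2 scale, so the 6 tested Igfbp genes did not share a direction. The collagen-domain factor C1qtnf3 (2.74), the angiopoietin-like Angptl1 (2.06), the guidance ligand Slit3 (1.95), the delta-like Dlk1 (1.78), pleiotrophin Ptn (1.54) and the opioid precursor Penk (1.49) were also higher. Dlk1 was at 111 to 131 CPM in control medium and at 419 to 422 CPM in ferroptotic medium. Penk was already abundant, at 424 to 493 CPM, and reached 1250 to 1360 CPM.

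The Wnt antagonists Sfrp1 and Sfrp2 moved in opposite directions. Sfrp1 fell from 347, 381 and 349 CPM to 127, 135 and 132 CPM (log2 change -1.45, SE 0.0313, adjusted p = 7.16e-45). Sfrp2 rose from 61.8, 58.5 and 54.5 CPM to 218, 228 and 224 CPM (log2 change 1.94, SE 0.0345, adjusted p = 1.67e-60). Per kilobase of gene model, Sfrp1 averaged 82.1 and Sfrp2 27.1 CPM in control medium, and 30 and 104 CPM in ferroptotic medium, so the order of their levels turned.

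Antagonists of BMP and activin split in the same manner. Of 12 tested, 6 were higher and 5 lower. Chrdl1, which encodes a chordin-like protein that binds BMPs, had 24 reads in control medium and 436 in ferroptotic medium (log2 change 4.05). Noggin, Nog, had 69 and 487 reads, at 0.814 to 1.32 CPM and 6.41 to 7.83 CPM (log2 change 2.7, SE 0.163, adjusted p = 4.24e-26). Chordin itself, Chrd (-0.73), and gremlin, Grem1 (-0.95), were lower. On the activin side, Fstl3, an activin and myostatin binder, fell from 26.9, 30.4 and 28.9 CPM to 9.69, 9.33 and 11.4 CPM (log2 change -1.5). Inhbb, the activin B subunit gene, fell from 10.2, 10.3 and 11.2 CPM to 2.17, 2.96 and 2.79 CPM (log2 change -1.99). Inhba, the activin A subunit gene, fell less (-0.40), and the activin antagonist gene Fst went the other way (0.43). The TGF-beta ligands were lower by less, with Tgfb1 at -0.40, Tgfb2 at -0.21 and Tgfb3 at -0.38.

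At a mean of at least 5 CPM, the largest falls were those of Alkal1, a ligand of the receptor tyrosine kinases ALK and LTK, and of Edn1, the gene of the vasoconstrictor endothelin. Alkal1 was at 12, 13.6 and 14.7 CPM in control medium and had 13, 7 and 14 reads in the ferroptotic libraries, at 0.314 to 0.589 CPM (log2 change -4.74, SE 0.164, adjusted p = 1.35e-41). Edn1 went from 15.2, 18.4 and 18.6 CPM to 1.45, 1.57 and 1.66 CPM (log2 change -3.47, SE 0.12, adjusted p = 1.13e-41). Below that level Angptl7, an angiopoietin-like gene, fell further, from 162 reads in the control libraries to 5 in the ferroptotic ones (log2 change -5.02). Among abundant genes, Ccn5 (-2.12) and osteopontin Spp1 (-1.51) were lower, with Spp1 going from 3420 to 3840 CPM to 1280 to 1290 CPM. The matricellular genes Ccn1 (-1.0) and Ccn2 (-1.25) moved with Ccn5. The neurotrophin gene Bdnf fell from 84.8 to 87.8 CPM to 33.8 to 35.6 CPM (log2 change -1.32), and Gdnf by 1.24 on the log2 scale.

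Of 15 tested genes of interleukins, colony-stimulating factors and the IL6 family, 5 were higher and 7 lower, with a median of 0.02. Those whose products signal through gp130 are described with their receptors, a grouping made after their values were seen. They share the receptor chain gp130, encoded by Il6st, and drive STAT3 and its feedback inhibitor SOCS3. Il6 went from 5.37, 5.51 and 6.20 CPM to 0.634, 0.673 and 0.458 CPM (log2 change -3.27, SE 0.194, adjusted p = 2.02e-26). Lif (-1.29), Il11 (-1.25) and Clcf1 (-0.28) were lower, and Ctf1 was higher by 0.33. On the receptor side Il6st fell from 1500, 1560 and 1550 CPM to 786, 791 and 766 CPM (log2 change -0.97, SE 0.0264, adjusted p = 4.68e-49). The oncostatin M receptor gene Osmr fell from 541, 569 and 576 CPM to 258, 261 and 254 CPM (log2 change -1.13). The receptor gene for IL-11, Il11ra1, went the other way and was higher by 0.29. Socs3 fell from 70.8, 76.9 and 76.7 CPM to 19.2, 19.4 and 19.6 CPM (log2 change -1.95, SE 0.0488, adjusted p = 1.49e-51). The Il6 level in ferroptotic medium rests on 11 to 15 reads a library.

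Chemokine genes were mostly weakly expressed. Of 14 tested, 4 were higher and 6 lower, with Ccl2 at 2.06 (15 reads in control and 69 in ferroptotic medium) and Cxcl14 at -2.07 (207 and 53 reads). Of 9 fibroblast growth factor genes, 5 were lower, from Fgf7 (-0.20) to Fgf5 (-1.56), and Fgf1 was higher (2.20, from 9 to 46 reads).

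Receptor genes were likewise called more often than genes at large. Of 577 listed, 255 were tested, and 87 were higher and 104 lower. Calls reached 74.9%, against 55.2% of all genes. Changes of at least 2-fold reached 20%, against 6.76% of all genes, with 28 up and 23 down. Of the tested receptor genes, all protein-coding, 34.1% were higher and 40.8% lower, against 30.3 and 29.4% of all tested protein-coding genes. The class was built from name patterns and holds Il1rn, a secreted receptor antagonist. Of the receptors at 5 CPM or more, the Wnt receptor gene Fzd9 rose most, from 4.65, 3.92 and 4.74 CPM to 20.2, 19.9 and 17.6 CPM (log2 change 2.12, SE 0.0922, adjusted p = 7.15e-35). The RNA sensor gene Tlr7 rose from 3.35, 3.37 and 3.86 CPM to 11.7, 12.6 and 11.6 CPM (log2 change 1.76, SE 0.106, adjusted p = 4.39e-26). Tlr8, its neighbour in the family, had 1 read in the control libraries together and 45 in the ferroptotic ones, and the fitted log2 change of 4.95 is imprecise for that reason. Of the macrophage markers tested, Lyz2 had 129 reads in the control libraries and 344 in the ferroptotic ones (adjusted p = 1.09e-11), Cd14 had 268 and 204 (adjusted p = 0.0018), and Cd68 had 156 and 167 (adjusted p = 0.958). Ptprc and C1qa had 0 reads in every library.

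The prolactin receptor gene Prlr had 8, 10 and 7 reads in control medium and 140, 168 and 173 in ferroptotic medium (log2 change 4.13, SE 0.202, adjusted p = 1.14e-31). Ackr4, a receptor that removes chemokines, rose by 1.75 on the log2 scale. The sorting receptor genes Sorcs1 and Sorcs2 went opposite ways, with Sorcs1 at 1.40 and Sorcs2 at -1.36. Sorcs1 went from 8.49 to 10.5 CPM to 23.5 to 26.4 CPM, and Sorcs2 from 220 to 230 CPM to 85.6 to 90.9 CPM.

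Receptor genes for vasoactive peptides moved in opposite directions, in cases chosen after their values were seen. The peptides CGRP and adrenomedullin act through CALCRL, whose preference is set by a RAMP partner. Calcrl rose from 5.08, 5.19 and 5.13 CPM to 17.3, 18.7 and 15.4 CPM (log2 change 1.74, SE 0.0915, adjusted p = 1.30e-29). Ramp2 rose from 6.80, 7.29 and 8.06 CPM to 24.4, 25.3 and 24.1 CPM, also by 1.74 (SE 0.076, adjusted p = 9.31e-35). Ramp3 went from 2.92, 3.46 and 2.98 CPM to 6, 6 and 3 reads, a log2 change of -3.80, and the ligand gene Adm fell by 1.30 on the log2 scale. For endothelin, whose ligand gene Edn1 fell, Ednra rose from 5.32 to 6.52 CPM to 13.5 to 16.5 CPM (log2 change 1.29). Ednrb fell from 2.49 to 3.24 CPM to 0.583 to 0.707 CPM (log2 change -2.14).

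Falls among receptors with a mean of at least 5 CPM were led by Plaur, the urokinase receptor gene, at 8.57, 9.48 and 8.30 against 1.72, 1.57 and 1.75 CPM (log2 change -2.38, SE 0.135, adjusted p = 1.27e-27). Below that level Lgr6, a receptor gene for R-spondins, fell from 141 reads to 8 (log2 change -4.19). Il1rl1, the receptor gene for IL-33, went from 24.6, 25.2 and 22.6 CPM to 5.93, 5.52 and 4.16 CPM (log2 change -2.22), and its ligand gene Il33 was higher by 0.93. Thbd (ENSMUSG00000074743, GRCm38 chromosome 2, 148404466 to 148408188), encoding the anticoagulant receptor thrombomodulin, fell from 383, 401 and 408 CPM to 100, 104 and 99.6 CPM (log2 change -1.97, SE 0.0301, adjusted p = 3.33e-67). Il4ra (-1.49) and Il13ra1 (-1.07), whose products pair as a receptor for IL-13, both fell. Igf1r, the receptor gene for insulin-like growth factor, fell from 568, 572 and 581 CPM to 272, 269 and 268 CPM (log2 change -1.09, SE 0.0272, adjusted p = 1.30e-51), beside the rises of Igfbp5 and Igfbp3.

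Receptors for guidance cues moved mainly upwards. Of 16 tested genes of plexins, neuropilins and the Robo and Unc5 groups, 13 were higher and 2 lower, with a median of 0.30. Plxnd1 was the most changed of the well expressed ones, from 46.0, 48.5 and 44.2 CPM to 105, 100 and 98.3 CPM (log2 change 1.13, SE 0.0393, adjusted p = 1.85e-41). Of the receptors for Slit ligands, Robo1 was lower (-0.22) and Robo2 higher (0.88), while Slit3 was higher. Receptors for TGF-beta and BMP went the other way, with 6 of 10 lower and 1 higher, all by 0.74 or less in size. Of 37 tested genes named Gpr or Adgr, mostly orphan and adhesion receptors, 18 were lower and 7 higher.

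**Figure D3:**
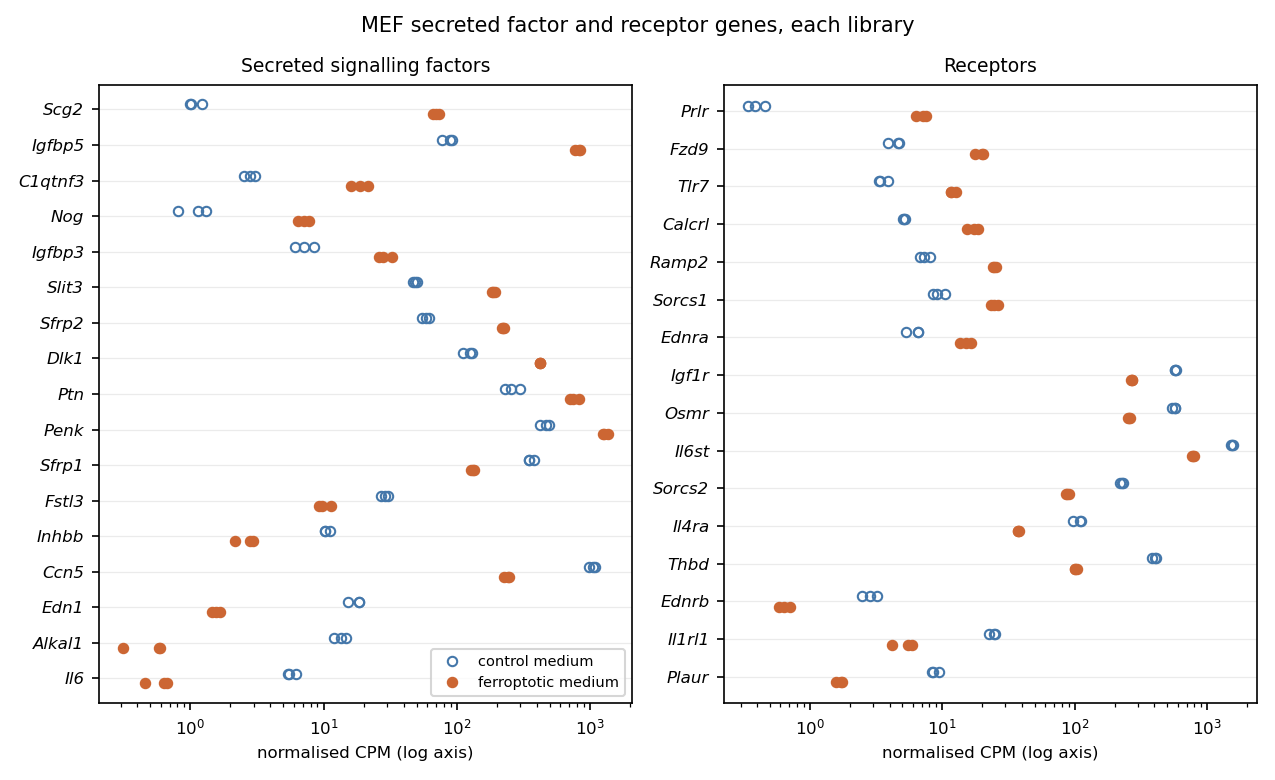
Normalised CPM (log axis) of 17 secreted factor genes (left) and 16 receptor genes (right), with 1 open circle per control library and 1 filled circle per ferroptotic library. Scg2 shows the widest separation (1.00 to 1.22 against 66.7 to 73.2 CPM), and Sfrp1 and Sfrp2, and likewise Ednra and Ednrb, lie on opposite sides.

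Among lineage lists, contractile genes were mostly lower and cartilage genes mostly higher, while bone and tendon genes were divided. Lists of marker genes are described by counts, medians and summed levels, with no test of the list. Of 19 tested smooth muscle and myofibroblast contractile genes, 16 were lower and 1 higher, with a median log2 change of -0.60 against 0.00 over all genes. The summed level of the list was 5400 to 5580 plain CPM in control medium and 4000 to 4080 in ferroptotic medium. Acta2 (ENSMUSG00000035783, GRCm38 chromosome 19, 34241090 to 34255590), the alpha smooth muscle actin gene that defines myofibroblasts, was at 557, 624 and 600 CPM in control medium and at 286, 278 and 274 CPM in ferroptotic medium (log2 change -1.09, SE 0.0304, adjusted p = 1.39e-36). Actg2 (-2.05), Synpo2 (-1.45), Filip1l (-1.0), Myl9 (-0.99), Csrp1 (-0.87), Tagln (-0.87) and Cnn2 (-0.73) were lower as well. Mylk, the myosin light chain kinase gene, was the exception, at a mean of 19.7 CPM in control and 39.4 CPM in ferroptotic medium (log2 change 1.00). Smtn (0.02, adjusted p = 0.712) and Ldb3 (-0.32, adjusted p = 0.323) did not pass the test, and Des, Hspb7 and Myh11 had too few reads to be tested.

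The contractile genes are known for the CArG box, CC and GG around a run of A or T, to which serum response factor binds. Promoters of 3 contractile genes that were lower and hold a CArG box are shown, 250 bases before the annotated start (RefSeq, GRCm38.p6, all on the plus strand), 5′ to 3′ with the box in capitals. They are Myl9 at chr2:156775214-156775463, Cnn2 at chr10:79988350-79988599 and, of 2 annotated Filip1l starts, that at chr16:57548992-57549241.
Myl9: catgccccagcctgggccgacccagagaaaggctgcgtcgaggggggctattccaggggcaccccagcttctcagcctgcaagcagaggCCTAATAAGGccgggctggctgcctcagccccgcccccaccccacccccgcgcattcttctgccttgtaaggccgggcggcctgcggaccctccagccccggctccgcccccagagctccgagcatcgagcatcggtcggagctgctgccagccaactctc
Cnn2: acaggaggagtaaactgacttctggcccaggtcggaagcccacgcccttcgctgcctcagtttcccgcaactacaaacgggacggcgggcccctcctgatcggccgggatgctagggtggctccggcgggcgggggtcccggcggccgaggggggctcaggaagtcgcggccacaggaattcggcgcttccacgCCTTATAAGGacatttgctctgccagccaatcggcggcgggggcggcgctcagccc
Filip1l: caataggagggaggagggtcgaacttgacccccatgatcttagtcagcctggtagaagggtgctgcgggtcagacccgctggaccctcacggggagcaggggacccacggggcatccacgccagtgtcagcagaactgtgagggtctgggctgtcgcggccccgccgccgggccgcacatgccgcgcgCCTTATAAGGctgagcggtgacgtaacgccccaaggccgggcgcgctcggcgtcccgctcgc
The box starts 161, 56 and 62 bases before the start. On either strand of the 300-base windows, a CArG box was found in 3 of 13 matched contractile genes that were lower (23.1%) and in 4 of 16 matched contractile genes tested (25%), the further one being Ldb3. It was found in 1.57% of matched tested genes, in 1.75% of genes called higher and in 1.84% of genes called lower. The AP-1 letters TGANTCA were in 5.90% of matched tested genes, in 6.80% of those called lower and in 10.4% of those at least 2-fold lower (25 of 241), beside 6.86% of those at least 2-fold higher (29 of 423).

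Cartilage genes formed the list with the highest median, 1.27. Of 19 tested, 16 were higher and 1 lower, and 12 rose at least 2-fold. The summed level was 4420 to 4540 plain CPM in control medium and 7650 to 7860 in ferroptotic medium. Matn4 (ENSMUSG00000016995, GRCm38 chromosome 2, 164389393 to 164405160), a matrilin of the cartilage matrix, rose from 22.0, 20.8 and 19 CPM to 166, 167 and 156 CPM (log2 change 2.98, SE 0.0428, adjusted p = 1.73e-67). Comp, the cartilage oligomeric matrix protein gene, rose from 41.3 to 43.6 CPM to 144 to 151 CPM (log2 change 1.81). The chains of collagen IX moved together, with Col9a1 at 1.34, Col9a2 at 1.57 and Col9a3 at 3.94, and Col11a1 rose from 1160 to 1220 CPM to 2370 to 2550 CPM (log2 change 1.03). Col2a1, the main cartilage collagen gene, was abundant in both media and rose less (2820 to 3790 CPM on average, log2 change 0.42). Sox9, the master factor of cartilage, did not pass the test (179 and 187 CPM on average, log2 change 0.06, adjusted p = 0.0501), whereas its partner Sox6 was higher (0.64). Sox5, the other partner, was at 0.38 and lost its call in DESeq2 (adjusted p = 0.0995), without control replicate 2 (0.162) and without ferroptotic replicate 1 (0.111). Acan, the main cartilage proteoglycan gene, was higher by 1.40 at a low level (0.269 and 0.717 CPM on average). Matn3 (0.17 and 1.16 CPM) and Hapln1 (0.412 and 0.984 CPM) were likewise higher at low levels. The listed cartilage genes Chad, Epyc, Ihh, Matn1, Scrg1, Snorc and Ucma had too few reads to be tested.

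Bone and tendon genes were higher more often than lower, with exceptions that stand out by size. Of 15 bone genes, 10 were higher and 2 lower (median 0.43), yet the summed level of the list was 4020 to 4380 plain CPM in control medium and 2080 to 2100 in ferroptotic medium. Most of that sum was osteopontin, Spp1, the lower gene described among secreted factors. Phex, an endopeptidase gene of phosphate balance, rose most, from 3.26, 2.83 and 2.39 CPM to 53.0, 63.8 and 52.5 CPM (log2 change 4.31, SE 0.103, adjusted p = 3.60e-22). Dmp1, an osteocyte matrix gene, was at 3.26, 3.60 and 2.73 CPM in control medium and at 9.19, 11.1 and 10.1 CPM in ferroptotic medium (log2 change 1.66). Dlx5 (2.03) and Sp7 (1.74), early osteoblast factors, were higher at low levels (52 and 15 reads in control medium, 230 and 55 in ferroptotic medium), while Spp1 and Cthrc1 (-0.86) were lower. The late bone genes Bglap, Ibsp and Sost had too few reads to be tested. Of 13 tendon and ligament genes, 8 were higher and 5 lower (median 0.71), and the summed level was 4200 to 4440 and 5910 to 6220 plain CPM. Scx, the tendon lineage factor, rose from a mean of 27.4 to 61.0 CPM (1.15) with Tnmd (1.24) and Fmod (1.13), and Cilp2, a cartilage intermediate layer gene, rose most (3.24, from 45 to 463 reads). Ptgs2, the inducible cyclooxygenase gene, fell most, from 11.8, 12.9 and 10.3 CPM to 2.22, 2.56 and 2.33 CPM (log2 change -2.30). The thrombospondin genes Thbs4 (-1.18) and Thbs2 (-0.77), the lectin gene Chodl (-0.74) and the tendon factor Mkx (-0.73) fell as well.

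Of 13 fat cell genes tested, 8 were higher and 2 lower (median 0.28). Pparg, the master factor of fat cells, rose from 18, 19.3 and 18.8 CPM to 42.9, 44.8 and 43.7 CPM (log2 change 1.23, SE 0.0541, adjusted p = 1.59e-34). Its targets Lpl, which frees fatty acids from lipoproteins, and Fabp4 rose by 2.31 and 1.28, and the preadipocyte factor Zfp423 by 1.26. Pnpla2 (-0.40) and Acsl1 (-0.21) of the same list were lower, and Lipe, Dgat2 and Klf15 did not pass the test. Lpl went from 30.5, 32.4 and 29.6 CPM to 151, 159 and 148 CPM. The genes of mature fat cells Adipoq, Plin1, Cidec and Cfd had too few reads to be tested. Dlk1, an inhibitor of fat cell formation, rose beside them.

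Fibroblast identity genes did not move as a block. Of 18, 6 were higher and 9 lower, with a median of -0.08. The surface markers Thy1 (528 to 538 CPM against 304 to 306 CPM, log2 change -0.81) and Pdgfra (-0.79) fell, and Pdgfrb did not pass the test (0.01, adjusted p = 0.708). The matrix genes Postn (1.58), Dcn (1.77), Lum (2.10) and Mmp2 (0.70) rose, and Col1a2 fell by 0.21 on the log2 scale. Elastin, Eln, which belongs to no list, rose from 13.5, 17.1 and 18.1 CPM to 123, 133 and 123 CPM (log2 change 2.96, SE 0.0571, adjusted p = 2.91e-28). Of 20 limb and skin patterning genes, 5 were higher and 4 lower (45.0% called, median -0.00026), and without scaling 8 were higher. The mesenchymal factors Prrx1 (0.03, adjusted p = 0.434) and Tbx15 (-0.03, adjusted p = 0.418) did not pass the test.

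**Figure D4:**
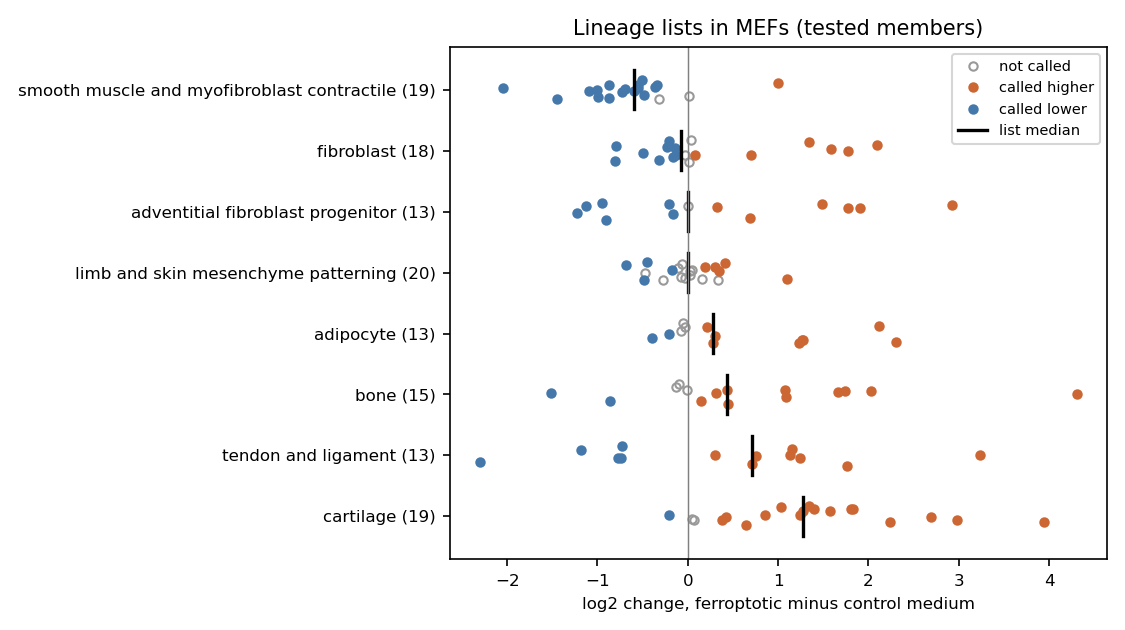
Log2 change of each tested member of 8 lineage lists, with 1 point per gene coloured by its call, a black bar at the list median and the number of tested members in brackets. The contractile list lies left of 0 except for Mylk and Smtn (median -0.60), and the cartilage list lies right of 0 except for Pth1r (median 1.27).

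Of 30 hepatocyte and hepatoma genes, 5 were tested, and 4 of these were lower and 0 higher in ferroptotic medium. Fgg, a fibrinogen chain gene, had 77 reads in the control libraries and 0 in all 3 ferroptotic ones, so at the floor of 3 reads over the group it was at least 26.5-fold lower. Itih2 fell by 0.67 on the log2 scale and Trf by 1.37, the latter from 23.9 to 25.5 CPM in control medium.

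Outside all lists, some of the most changed abundant genes have known roles in adhesion and metabolism. Kctd12, an auxiliary subunit gene of GABA-B receptors, rose from 66.3, 61.0 and 53.6 CPM to 657, 674 and 617 CPM (log2 change 3.43, SE 0.0734, adjusted p = 1.80e-08). Scara5, a ferritin receptor gene, rose from 40.0 to 46.7 CPM to 191 to 205 CPM (log2 change 2.17). Falls were led by the potassium channel gene Kcnj15, from 85.8, 95.4 and 96.0 CPM to 4.80, 3.86 and 3.99 CPM (log2 change -4.45, SE 0.0667, adjusted p = 8.24e-64). Tgm2, a transglutaminase that cross-links matrix, fell from 170, 197 and 194 CPM to 16.4, 16.3 and 18.3 CPM (log2 change -3.46). The serum and glucocorticoid kinase gene Sgk1 (-2.20), the collagen-binding integrin gene Itga11 (-2.05) and Pdk4, a brake on pyruvate oxidation (-1.87), followed.

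Among lncRNAs, more genes were higher than lower. Of 9911 annotated lncRNA genes only 612 had enough reads, and of these 175 were higher (28.6%) and 59 lower (9.64%), with a median log2 change of 0.17. The share called higher was close to that of all genes (27.9%), and the share called lower was below it (27.3%). At least 2-fold, 59 were higher and 8 lower (10.9%, against 6.76% of all genes). Of all genes, 4.38% were at least 2-fold higher and 2.38% at least 2-fold lower. DESeq2's Wald test called 111 higher, and without ferroptotic replicate 1 the number at least 2-fold lower was 15. Expression level bore on the balance: of lncRNAs under 1 CPM, 24.2% were higher and 4.46% lower, and of those at 5 CPM or more, 42.9% were higher and 23.8% lower. Protein-coding genes under 1 CPM were also called higher more often (31.7%) than lower (12.5%), and those at 5 CPM or more were balanced (29.8 and 32.3%). Among the 250 lncRNAs with no gene on the other strand, 25.6% were higher and 10.0% lower. The larger share of reads on no gene and the larger number of genes with a read in ferroptotic medium moved with this balance, and their part in it was not tested.

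**Figure D5:**
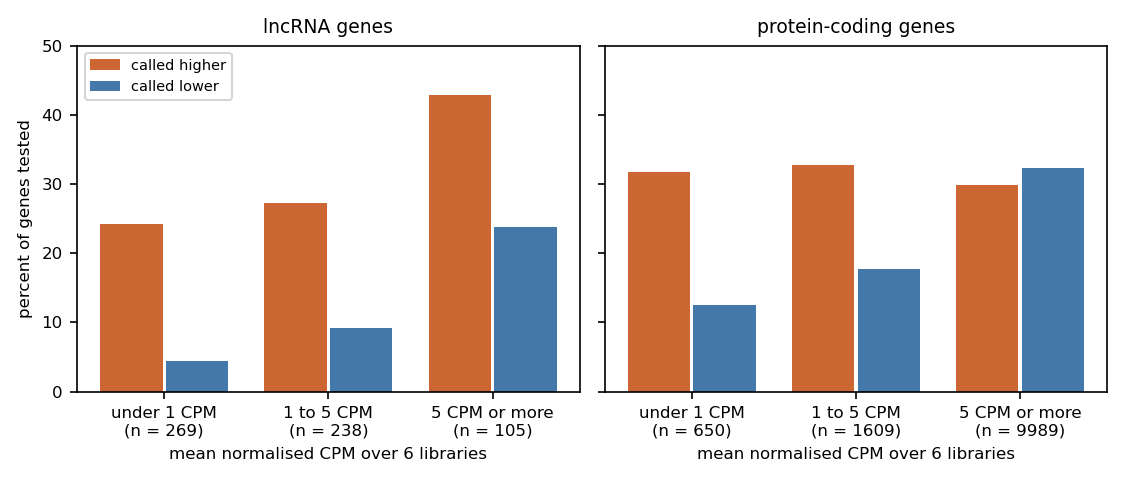
Percentage of tested lncRNA genes (left) and protein-coding genes (right) called higher or lower in ferroptotic medium, in 3 classes of mean level over the 6 MEF libraries, with the number of genes under each class. In lncRNAs the higher bar is the taller in each class (24.2 against 4.46%, 27.3 against 9.24%, 42.9 against 23.8%), and in protein-coding genes at 5 CPM or more the bars are near each other.

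Well known nuclear lncRNAs were among those that rose. Neat1 (ENSMUSG00000092274, GRCm38 chromosome 19, 5824708 to 5845478), the scaffold of nuclear paraspeckles, rose from 68.8, 66.3 and 55.8 CPM to 165, 158 and 191 CPM (log2 change 1.43, SE 0.12, adjusted p = 0.000584). Malat1, an abundant RNA of nuclear speckles, rose from 175, 184 and 169 CPM to 357, 376 and 381 CPM (log2 change 1.08, SE 0.0295, adjusted p = 1.32e-46). Firre, an X-linked nuclear RNA, rose from 4.10 to 5.46 CPM to 11.6 to 12.9 CPM (log2 change 1.32). The imprinted Meg3 rose from 50.4, 47.3 and 41.1 CPM to 107, 102 and 125 CPM (log2 change 1.27, SE 0.124, adjusted p = 0.000976), and Rian and Mirg of the same locus were higher by 0.41 and 0.59. Another imprinted lncRNA, H19, did not pass the test, at 338, 321 and 256 against 319, 341 and 278 CPM (adjusted p = 0.871). Xist had at most 9 reads in any MEF library.

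Mir99ahg, the host transcript of a microRNA cluster, rose from 3.26, 1.69 and 3.22 CPM to 6.75, 8.52 and 7.45 CPM (log2 change 1.48, SE 0.146, adjusted p = 7.69e-12). Its span on chromosome 16 holds the hairpins of miR-99a, let-7c and miR-125b, whose main mature sequences (RefSeq, GRCm38.p6) are given because the host is what was measured here. They are printed 5′ to 3′ with the seed, bases 2 to 8, in capitals.
mmu-miR-99a-5p: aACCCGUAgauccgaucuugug
mmu-let-7c-5p: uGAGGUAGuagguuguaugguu
mmu-miR-125b-5p: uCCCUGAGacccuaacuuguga
The 3 seeds differ from each other. Mature microRNAs are too short for this kind of library, so the rise is that of the host RNA alone.

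The largest rise among genes counted as lncRNAs, with 1 CPM or more, was that of Ptprv. It had 7 reads in the control libraries and 205 in the ferroptotic ones (log2 change 4.69). Ptprv is counted as non-coding by its annotated type, processed transcript, although its symbol is that of a receptor tyrosine phosphatase gene. Gm43672 rose from 4.00 to 4.19 CPM to 14.5 to 16.5 CPM (log2 change 1.90), and C430049B03Rik from 6.0 to 7.02 CPM to 18.6 to 19.8 CPM (log2 change 1.54). Falls were smaller. Gm26682 went from 3.07, 3.28 and 3.08 CPM to 0.408, 0.942 and 0.874 CPM (log2 change -2.07, SE 0.218, adjusted p = 9.52e-14). Gm49257 fell by 1.09 on the log2 scale and lies opposite Col14a1, which rose by 1.76, so its reads are uncertain without strand information. Zfp469, at 93.2 to 99.6 CPM in control and 54.1 to 55.6 CPM in ferroptotic medium (log2 change -0.80), is counted here as non-coding by its annotated type although its symbol is that of a zinc finger gene.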

How the data were processed

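RNA was sequenced from 6 MEF libraries, 3 per medium, and from 6 Hepa1 libraries used only as a reference. The deposited values are raw read counts per Ensembl gene, and per the submitters' processing notes STAR 2.7.10a, HTSeq 0.9.1, Trimmomatic 0.39 and FastQC 0.11.9 were used, with GRCm38 (mm10). Per the labels' protocols, a NEBNext Ultra II kit was used on 100 ng of RNA. No source used here gives the strand setting or annotation release. Besides 55487 genes the table has 5 summary lines, kept out of all totals, and 0 values differed from the files of single samples. Reads on no gene and ambiguous reads are given per library as shares (2 to 2.52% and 3.66 to 3.7%). GENCODE M21 supplied names, types and coordinates and named 55227 genes.

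Genes were filtered with filterByExpr, scaled with TMM and tested in edgeR 4.0.16 (robust quasi-likelihood fit, R 4.3.3), with Benjamini-Hochberg adjustment over all 14441 genes. The biological coefficient of variation was 2.45%. Depth was 21 to 23.4 M counts per MEF library, where 3 counts are 0.128 to 0.143 CPM, and such floors cover counting error only. On simulated data with 14441 genes, 51 genes were changed 1.25-fold, 51 by 1.5-fold, 47 by 2-fold and 51 by 4-fold. The pipeline recovered 70.6, 74.5, 89.4 and 100% of these, and 12.1% of 190 calls were false, above the limit of 0.05. Far fewer genes were changed than the 7971 called in the real data, so these shares do not carry over to the real calls.

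The members, lists and tests were chosen with earlier results of these data known. Lists were therefore not tested. The rule for named genes took, per class, the 8 largest rises and 8 largest falls among called genes whose media did not overlap, at a mean of at least 5 CPM (1 CPM for lncRNAs, 20 CPM for protein-coding genes in no class). It added up to 4 members of each lineage list with the smallest adjusted p and 12 fixed genes. Some genes that the rule took are not reported here. Other genes given were chosen after their values were seen. Alternatives were no scaling, DESeq2 size factors, the DESeq2 1.42.0 Wald test, limma-voom (limma 3.58.1), other count filters, a replicate block, all 12 libraries in 1 fit, and leaving out each library.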

Additional observations from a re-analysis of the deposited data

How the results depend on the processing

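Of 616 counts of called genes under the alternatives, covering 44 counts in all, 608 stayed within 1.5 times the value reported. The exceptions were the following. With only 1 read in 1 library required, 44 receptor genes (28 as reported) and 111 lncRNAs (59) were at least 2-fold higher, and 23 lncRNAs (8) at least 2-fold lower. With a CPM of at least 1 in 3 libraries, 34 lncRNAs were at least 2-fold higher and 4 lower. DESeq2's Wald test called 111 lncRNAs higher (175), and without scaling 8 limb and skin patterning genes were higher (5). With each library left out in turn, 8 to 15 lncRNAs were at least 2-fold lower, the 15 without ferroptotic replicate 1. The share of hepatoma reads in ferroptotic replicates 1 and 2 was 0.00508 and 0.00503% with a limit of 500 CPM in Hepa1, which leaves Krt18 alone, and that in ferroptotic replicate 3 was 0.102% with a limit of 0.05 CPM in MEFs in control medium. The cause of these shifts was not tested beyond the number of genes that each filter admits.

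Over all genes, without scaling 5234 genes were higher and 2971 lower, and with each library left out 3736 to 3833 were higher and 3668 to 3808 lower. Of 190 named genes followed through the alternatives, 177 were called, 6 of these lost their call under at least 1 alternative and 0 changed sign. Those were Bach1, Sox5, Erg, Myl4, Tubb3 and Col1a2, the last with all 12 libraries in 1 fit (adjusted p = 0.573). Of the 190 genes, those that did not pass included Sox9, Pdgfrb, Prrx1 and Fgfr1. They were called higher without scaling (adjusted p = 3.57e-05, 0.00616, 0.00408 and 4.73e-05). Sox9 was also called with a CPM of at least 1 in 3 libraries (0.0305). Krt7 was called lower in limma-voom (0.0211), and Aldoc higher without scaling (0.0442) and with the replicate block (0.0497). Of 224 list medians under an alternative, 36 moved by more than the spread between libraries. Same-numbered libraries of both media did not deviate together (r = 0.00837, -0.00266 and 0.0366), so the number was not taken as a pairing. With the replicate block 8084 genes were called, 4077 higher and 4007 lower, and 7966 were called in both fits. Genes under about 1 CPM rest on few reads, and small differences in them were not detectable at this depth.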

Other observations

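Annotated pseudogenes, which no comparison above covers, showed the opposite balance to lncRNAs. Of 1448 tested, 110 were higher (7.60%) and 275 lower (19%), and at 5 CPM or more 9.33% were higher and 39.9% lower. Pseudogenes share reads with their parent genes, so these counts are uncertain. Of the lncRNA biotypes, lincRNAs (65 higher and 22 lower of 197), antisense RNAs (39 and 12 of 187) and processed transcripts (59 and 13 of 162) each had more genes higher than lower.

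Smaller marker lists held genes that moved in opposite directions. In the neural crest and glia list, S100b rose from 2.46 to 3.66 CPM to 6.59 to 8.65 CPM and Mbp fell by 1.99 on the log2 scale, while Sox10 had 0 reads. In the pericyte list, Notch3 rose from 56.2 to 60.6 CPM to 81.2 to 84.3 CPM (log2 change 0.52), and Mcam fell from 6.25 to 7.76 CPM to 1.71 to 2.67 CPM (log2 change -1.71). In the adventitial progenitor list, Cd34 rose from 12.2 to 13.1 CPM to 39.1 to 49.2 CPM (log2 change 1.77), and Mfap5 fell from 19.3 to 21.5 CPM to 8.43 to 10.6 CPM (log2 change -1.13).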
